A study of Mus musculus with 40 samples.

Results

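Expression of 10 genes of fat tissue and vitamin A transport was followed in the colon of mice that carried a gut protozoan and of mice that did not. They are Adipoq, Cfd, Retn, Fabp4, Car3, Plin1, Cidec, Plin4, Scd1 and Rbp4. Each was selected by its symbol and matched 1 row of the deposited count table, so the 10 genes are 10 of 45792 mouse gene rows. The study inoculated mice with 2000000 sorted Tritrichomonas musculis (T.mu), a flagellate that lives in the mouse large intestine, and compared them with mice given no inoculum. RNA was counted by 3′ digital gene expression, which sequences the ends of transcripts, in total colonic tissue and in colonic epithelial cells. The total tissue groups were T.mu and control at day 3, at day 14 and at day 48 after inoculation, and the epithelial groups were the same 6. Each group had 3 libraries at days 3 and 14 and 4 libraries at day 48, which makes 40 libraries. T.mu and control libraries of a day carry the same litter numbers, and neither a strain, a genotype, an age nor a sex is given in the labels used here. The series design names 3 mice a group, fewer than the 4 libraries of day 48, so that those 4 come from separate mice rests on their litter numbers.

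White fat cells store triglyceride in a large droplet coated with perilipins and CIDE proteins, and they secrete hormones known as adipokines. Fat lies along the mesenteric border of the colon and in scattered cells of the submucosa, so a piece of total colonic tissue can include it, while a preparation of epithelial cells should hold little. Rbp4 encodes the plasma carrier of retinol (vitamin A). It is made mainly by liver and adipose tissue, circulates bound to transthyretin and is recognised on target cells by the receptor STRA6.

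Library depth differed between the groups. Total tissue libraries held 220717 to 6756616 counts (median 2158349), and epithelial libraries 170291 to 2866306 (median 1166080). The 4 T.mu tissue libraries of day 48 held 236155 to 1355659 counts, against 2223447 to 6756616 in the 4 controls of that day. All 4 of those T.mu libraries also share a second sequencing index that no other library carries, so at day 48 the inoculum, the index and the depth cannot be told apart in total tissue. At days 3 and 14 the T.mu and control tissue libraries of a day share 1 second index. The tissue labels were checked on smooth muscle markers, which summed to 24.8 to 78.8 CPM (counts scaled to a common library total) in epithelial libraries and to 3062 to 7270 CPM in total tissue. Of 6 interferon-response genes, edgeR called 5, 5 and 3 higher in T.mu tissue at days 3, 14 and 48 (adjusted p under 0.05). Of all tested genes, 0.479%, 0.949% and 1.8% were called in either direction. That list was chosen with earlier results of these data known, so it is no independent check of the inoculum labels.

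Promoters from RefSeq (GRCm38.p6) were matched for 7 of the 10 genes, 9 promoters in all. The promoters of 2 adipokine genes whose levels moved together across tissue libraries are shown beside that of Rbp4, whose levels did not follow them. Each is the 250 bases before the transcription start, written 5′ to 3′ on the gene's strand. Adipoq lies on the plus strand at chr16:23146286-23146535, Cfd on the plus strand at chr10:79890603-79890852 and Rbp4, at its first listed start, on the minus strand at chr19:38124812-38125061. Capitals mark matches on either strand to CCAAT (the box bound by NF-Y), to TATAAA (the TATA box) or to TTGCNNAA, a loose form of the motif bound by C/EBP factors.
Adipoq: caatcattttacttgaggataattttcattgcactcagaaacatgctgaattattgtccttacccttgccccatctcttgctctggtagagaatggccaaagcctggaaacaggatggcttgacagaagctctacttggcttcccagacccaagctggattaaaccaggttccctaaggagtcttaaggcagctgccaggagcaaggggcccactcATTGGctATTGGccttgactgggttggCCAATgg
Cfd: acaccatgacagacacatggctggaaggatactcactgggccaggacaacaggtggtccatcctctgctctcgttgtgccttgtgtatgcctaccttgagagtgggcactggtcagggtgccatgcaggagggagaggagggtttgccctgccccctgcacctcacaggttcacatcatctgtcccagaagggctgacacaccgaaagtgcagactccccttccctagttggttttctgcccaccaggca
Rbp4: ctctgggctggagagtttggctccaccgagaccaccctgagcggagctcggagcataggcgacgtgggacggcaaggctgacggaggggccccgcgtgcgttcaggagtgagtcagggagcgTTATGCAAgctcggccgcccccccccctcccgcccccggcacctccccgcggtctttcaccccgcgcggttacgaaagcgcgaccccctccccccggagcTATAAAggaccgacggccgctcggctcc
The Adipoq window holds CCAAT 3 times, with the copy nearest the start at bases -7 to -3. In the same windows, extended to 50 bases after the start, 37.4% of 32851 RefSeq promoters hold CCAAT. The Rbp4 window holds TATAAA at bases -28 to -23, as do 13.6% of promoters somewhere in the window, and TTGCNNAA on the other strand at bases -128 to -121, as do 10.8%. The Cfd window holds none of these motifs. None of these 9 promoters held the consensus DR1 element, a direct repeat recognised by PPAR and other nuclear receptors, which 0.0396% of all promoters hold. These matches describe the letters of each window only.

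In total tissue most of these genes were lower in T.mu than in control libraries at day 48, and none was called at day 3 or day 14. Values are CPM of mouse counts scaled by TMM, and calls are adjusted p-values under 0.05 from edgeR's quasi-likelihood test, with Benjamini-Hochberg adjustment over all genes tested. Of the 9 genes that passed the count filter, 6 were called lower in T.mu at day 48: Rbp4, Cidec, Fabp4, Car3, Scd1 and Cfd. The background in that comparison was 1.8% of 11696 tested genes called in either direction and 0.795% called lower. By edgeR all 9 had an unadjusted p under 0.05, as did 13.6% of all tested genes. For 7 of the 9 genes no T.mu library reached the lowest control, against 6.71% of all tested genes. The median log2 fold change of the 9 was -3.04, also with Rbp4 set at its lower bound, and that of all tested genes was -0.11. Plin1 did not pass the filter. In bulk RNA, fewer fat cells in a sample and less of these transcripts per fat cell cannot be told apart.

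**Figure D1:**
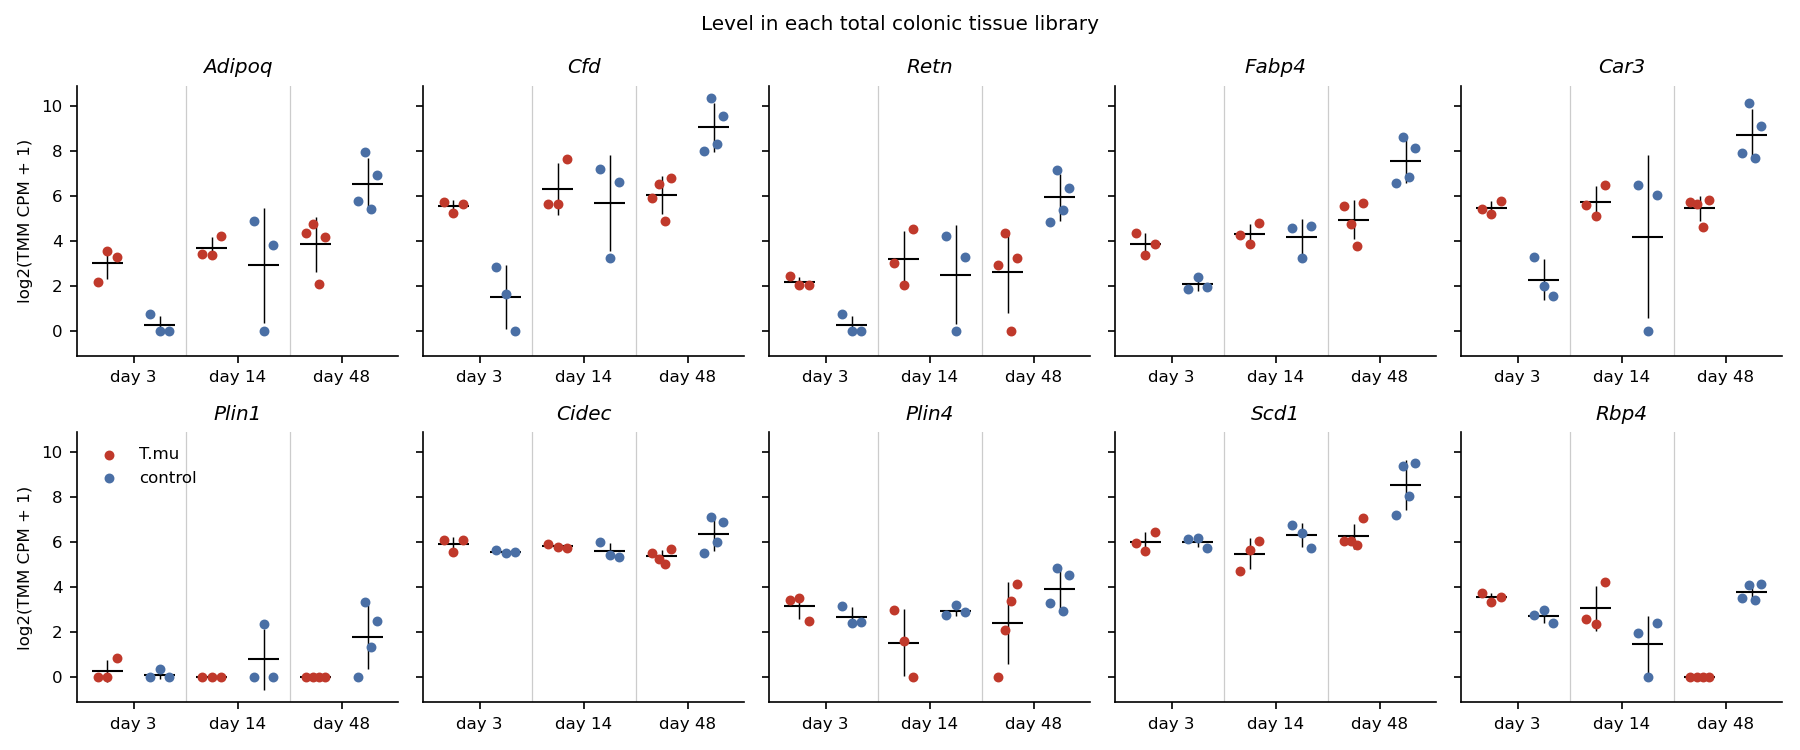
Level of each gene in each total colonic tissue library, as log2(TMM CPM + 1), with T.mu in red left of control in blue at days 3, 14 and 48 and a bar with whiskers for the mean ± SD of the logged values (n = 3, 3 and 4 a group). Adipoq, Cfd, Retn, Fabp4 and Car3 are on average highest in the 4 day 48 controls and lowest in the 3 day 3 controls, and Rbp4 is at 0 in all 4 day 48 T.mu libraries.

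Of the adipokine genes, Adipoq encodes adiponectin, a hormone secreted almost only by fat cells. At day 48 Adipoq measured 19.4, 26.1, 3.17 and 16.8 CPM in T.mu tissue, against 53.1, 244, 42.0 and 120 CPM in controls. Every T.mu library lay under every control, the log2 fold change was -3.04 ± 0.76 (SE) and the adjusted p of 0.0617 missed the threshold. Leaving out 1 library of that day moved the value to between -3.70 (without T.mu replicate 2) and -2.34 (without control replicate 2). At day 14 Adipoq measured 9.70, 9.34 and 17.7 CPM in T.mu tissue, against 28.7, 0 and 13.0 CPM in controls, and the groups overlapped. At day 3 Adipoq measured 3.55, 10.8 and 8.65 CPM in T.mu tissue, against 0.647, 0 and 0 CPM in controls. All 3 T.mu libraries were above the controls, which together held 2 counts. The pooled ratio was 45.6, with a counting interval of 12.1 to 385 that covers counting error only.

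Cfd encodes adipsin, the complement factor D that fat cells release. At day 48 Cfd measured 58.3, 91.3, 28.5 and 109 CPM in T.mu tissue, against 256, 1291, 317 and 755 CPM in controls. It was 9.89-fold lower in T.mu tissue (log2 -3.31 ± 0.78, adjusted p = 0.0455) with no overlap between the groups. That call ended when litter was added to the model (adjusted p = 0.0962, or 0.0645 with litter within day) and in 7 of 8 fits that left out 1 library of that day, all but the one without control replicate 1, over which the adjusted p ranged from 0.0358 to 0.12. At day 14 Cfd measured 49.2, 48.8 and 197 CPM in T.mu tissue, against 144, 8.32 and 95.6 CPM in controls. At day 3 Cfd measured 52.3, 36.6 and 48.8 CPM in T.mu tissue, against 6.15, 2.13 and 0 CPM in controls (log2 4.14 ± 1.06, adjusted p = 0.196). The day 14 groups overlapped and the day 3 groups did not.

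Retn encodes resistin, which in mice is a product of fat cells. At day 48 Retn measured 6.48, 19.6, 0 and 8.42 CPM in T.mu tissue, against 27.4, 142, 40.7 and 80.1 CPM in controls. The groups did not overlap and the log2 fold change was -3.30 ± 0.85, with an adjusted p of 0.0708. Leaving out 1 library of that day moved it to between -4.88 (without T.mu replicate 2) and -2.46 (without T.mu replicate 3). At day 14 Retn measured 6.96, 3.11 and 22.1 CPM in T.mu tissue, against 17.2, 0 and 8.69 CPM in controls, which overlap. At day 3 Retn measured 4.43, 3.09 and 3.15 CPM in T.mu tissue, against 0.647, 0 and 0 CPM in controls. The controls held 2 counts in all, and the pooled ratio was 19.4 (counting interval 4.86 to 169).

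Fabp4 and Car3 are abundant cytosolic proteins of fat cells. Fabp4 carries fatty acids and is also found in capillary endothelium and macrophages. At day 48 Fabp4 measured 45.3, 26.1, 12.7 and 50.5 CPM in T.mu tissue, against 93.4, 385, 114 and 275 CPM in controls. It was 7.81-fold lower in T.mu tissue (log2 -2.97 ± 0.53, adjusted p = 0.0081) with no overlap. At day 14 Fabp4 measured 17.9, 13.5 and 26.6 CPM in T.mu tissue, against 23.0, 8.32 and 23.9 CPM in controls, which overlap. At day 3 Fabp4 measured 19.5, 9.28 and 13.4 CPM in T.mu tissue, against 2.59, 4.26 and 2.84 CPM in controls, with no overlap and an adjusted p of 0.532 (log2 2.07 ± 0.68).

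Car3 encodes a carbonic anhydrase of fat, liver and slow skeletal muscle. At day 48 Car3 measured 51.8, 48.9, 23.7 and 54.7 CPM in T.mu tissue, against 241, 1125, 206 and 540 CPM in controls. It was 12.9-fold lower in T.mu tissue (log2 -3.69 ± 0.70, adjusted p = 0.0144), and the highest T.mu library lay under the lowest control. Without control replicate 2 the log2 fold change was -3.00, still called. At day 14 Car3 measured 46.8, 33.7 and 88.5 CPM in T.mu tissue, against 89.1, 0 and 64.1 CPM in controls, which overlap. At day 3 Car3 measured 41.7, 35.6 and 53.5 CPM in T.mu tissue, against 8.74, 2.93 and 1.89 CPM in controls. Here the groups did not overlap, and the log2 difference of 3.30 ± 0.84 had an adjusted p of 0.196. Skeletal muscle markers, the other tissue source of Car3 on the marker lists, summed to 20.6 to 40.8 CPM in day 48 T.mu tissue and 23.5 to 85.5 CPM in controls, and of the 2 that could be tested 0 were called by edgeR and 0 had an unadjusted p under 0.05. At day 3 they summed to 45.4 to 47.2 CPM in T.mu tissue and 21.8 to 35.2 CPM in controls, without overlap. Their part in the Car3 values was not tested.

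Adipoq, Cfd, Retn, Fabp4 and Car3 moved together from library to library. Their summed level was 121, 95.4 and 127 CPM in T.mu tissue at day 3, against 18.8, 9.33 and 4.73 CPM in controls. At day 14 it was 131, 108 and 352 CPM in T.mu tissue, against 302, 16.6 and 205 CPM in controls. At day 48 it was 181, 212, 68.1 and 240 CPM in T.mu tissue, against 671, 3187, 720 and 1772 CPM in controls. The T.mu groups thus lay between 68.1 and 352 CPM on all 3 days, while the control groups covered 4.73 to 3187 CPM. Over the 20 tissue libraries the 10 pairs of these genes had Pearson r of 0.88 to 0.96 on log2(CPM + 1), and 0.75 to 0.92 in the 16 libraries other than the day 48 controls. These points share libraries and depth, so the correlations are descriptions.

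The lipid droplet genes behaved less alike. Plin1, the perilipin that coats the large droplet of white fat cells, had 0 counts in all 4 T.mu tissue libraries of day 48, against 0, 31, 11 and 17 counts in controls. Against a floor of 3 counts over the group, with counts as deposited, it was at least 2.88-fold lower, and it was not tested. At days 3 and 14 Plin1 had at most 1 count in any tissue library.

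Cidec, which fuses lipid droplets, measured 45.3, 37.5, 31.7 and 50.5 CPM in T.mu tissue at day 48, against 44.7, 137, 63.4 and 119 CPM in controls. It was 2.35-fold lower in T.mu tissue (log2 -1.23 ± 0.28, adjusted p = 0.00728), although 1 control lay within the T.mu range. At day 3, when it was well detected in controls too, it measured 66.9, 46.9 and 68.4 CPM in T.mu tissue, against 49.5, 45.0 and 46.8 CPM in controls. At day 14 Cidec measured 58.9, 53.9 and 53.1 CPM in T.mu tissue, against 63.2, 41.6 and 40.2 CPM in controls. Both earlier days overlapped. The Cidec call at day 48 was lost without T.mu replicate 3 or without control replicate 2 (adjusted p of 0.000516 to 0.0729 over the 8 fits), and with thinned counts.

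Plin4, a perilipin of small and nascent droplets, did not pass the test at day 48. It measured 0, 3.26, 9.50 and 16.8 CPM in T.mu tissue, against 8.85, 28.2, 6.76 and 22.3 CPM in controls, and these overlap (log2 -1.19 ± 0.59, adjusted p = 0.366). At day 14 Plin4 measured 6.96, 2.07 and 0 CPM in T.mu tissue, against 5.75, 8.32 and 6.52 CPM in controls. At day 3 Plin4 measured 9.75, 10.6 and 4.72 CPM in T.mu tissue, against 8.09, 4.26 and 4.49 CPM in controls, again with overlap on both days.

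Scd1, the desaturase that makes oleate from stearate and is expressed in many tissues, measured 64.8, 65.2, 57.0 and 135 CPM in T.mu tissue at day 48, against 148, 668, 268 and 742 CPM in controls. It was 6.1-fold lower in T.mu tissue (log2 -2.61 ± 0.52, adjusted p = 0.0176) with no overlap. The call was lost without T.mu replicate 2 (adjusted p of 0.00225 to 0.0664 over the 8 fits). At day 14 Scd1 measured 25.4, 49.8 and 66.4 CPM in T.mu tissue, against 109, 83.2 and 52.2 CPM in controls. At day 3 Scd1 measured 62.1, 47.9 and 88.1 CPM in T.mu tissue, against 69.9, 70.9 and 52.0 CPM in controls. Both earlier days overlapped, and the log2 difference at day 3 was 0.02 ± 0.54.

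Before day 48, then, no gene of the set was called. At day 3, 0 of 9 were called and 5 had an unadjusted p under 0.05, where 0.479% of all tested genes were called and 5.18% had such a p. For 6 of the 9 genes every T.mu library was above every control at day 3, against 6.84% of all tested genes. DESeq2 called 3 of them higher (Car3, Cfd and Adipoq) and limma voom 0, and 3 were called with litter within day in the model (Fabp4, Retn and Adipoq). At day 14, 0 of 9 were called by edgeR, DESeq2 or limma voom, 0 had an unadjusted p under 0.05, and all 9 overlapped, where 0.949% of tested genes were called. DESeq2 gave Plin4 and Rbp4 no adjusted p at that day. As a mean over the 3 days 0 of 9 were called and 2 had an unadjusted p under 0.05, against backgrounds of 1.9% called and 10.9% at such a p. DESeq2 called 1 (Scd1) and limma voom 0.

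**Figure D2:**
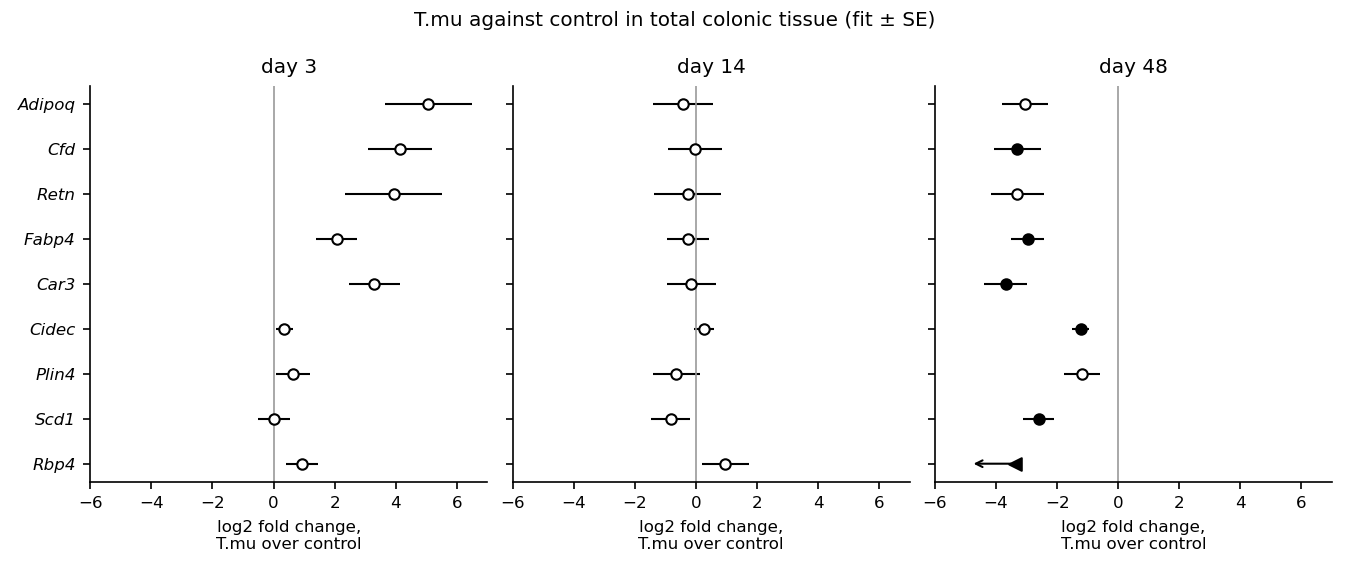
Log2 fold change of T.mu over control in total tissue at days 3, 14 and 48, with 1 SE from edgeR's fit, filled where the adjusted p is under 0.05. The arrow marks Rbp4 at day 48, drawn at its lower bound of 10.4-fold on counts as deposited, because all 4 T.mu libraries held 0 counts. The 5 genes at the top lie right of 0 at day 3 without a call, near 0 at day 14 and left of 0 at day 48.

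The day 48 calls of genes other than Rbp4 depended on the libraries in the fit and on the tool. With only the 8 day 48 tissue libraries in the fit, with limma voom, or without the libraries under 400000 counts, which leaves 2 T.mu libraries of day 48, Rbp4 remained called and none of the other 8 genes did. DESeq2 called 6 of 9, with Adipoq in, and gave Rbp4, Retn and Plin4 no adjusted p. With the summed level of 18 further fat cell genes as a covariate, a sum that was itself lower in T.mu tissue without overlap, edgeR called none of the 9, and the lowest adjusted p was 0.164, for Rbp4. Epithelial libraries of day 48 held sums near those of T.mu tissue, so that covariate is no measure of fat cells alone. The fitted log2 values under that covariate were -0.44 for Adipoq, -0.37 for Cfd, -0.53 for Retn, -0.78 for Fabp4, -1.07 for Car3, 0.26 for Cidec, 0.41 for Plin4 and -0.03 for Scd1. That of Rbp4, which depends on the prior count because the T.mu libraries are at 0, was -6.77 with the covariate and -7.95 without it. With each library thinned to 220717 counts, 5 of the 7 genes that still passed the filter were called, Fabp4, Car3, Retn, Cfd and Scd1. Cidec was not (adjusted p = 0.128), and Rbp4 no longer passed the filter. Without the filter Cfd was not called (adjusted p = 0.0652) and Retn was. With litter in the model 5 were called, and with litter within day 7, the last with Adipoq and Retn and without Cfd. A test of whether the T.mu effect differed between the 3 days called 1 gene, Rbp4 (adjusted p = 0.0136), of 8 genes called among all tested (0.0684%). Fabp4 and Car3 had adjusted p-values of 0.0752 and 0.0606 there, and DESeq2 called 4 of the genes (Fabp4, Car3, Cidec and Cfd), limma voom 1 (Rbp4) and litter within day 4 (Fabp4, Retn, Adipoq and Rbp4). DESeq2 gave Rbp4 no adjusted p in that test.

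Of the 10 genes, Rbp4 and Plin1 were undetected in T.mu tissue at day 48. Rbp4 had 0 counts in all 4 T.mu libraries, against 24, 56, 70 and 62 counts in controls, or 10.6, 16.3, 9.86 and 16.7 CPM. A floor of 3 counts over the T.mu group is 1.24 CPM, so on counts as deposited Rbp4 was at least 10.4-fold lower there than the pooled 12.8 CPM of the controls (adjusted p = 0.000405). That bound takes each count as independent. Small counts here were mostly even, so the true bound may be smaller, and it was not computed on halved counts. At the pooled control level the 4 T.mu libraries would have held 3.96, 7.87, 16.2 and 3.05 counts, 31.1 in all. Among the tested genes 61 were at 0 in all 4 of these libraries, and Rbp4 had the highest control level of the 61. The call remained with all counts halved (adjusted p = 0.0021, within 2.42e-05 to 0.164 over the alternatives tried).

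At the earlier days Rbp4 was detected in T.mu tissue. At day 3 Rbp4 measured 12.4, 9.28 and 11.0 CPM in T.mu tissue, against 5.82, 6.93 and 4.26 CPM in controls, and the groups did not overlap (log2 0.93 ± 0.52, adjusted p = 0.999). At day 14 Rbp4 measured 4.97, 4.15 and 17.7 CPM in T.mu tissue, against 2.87, 0 and 4.35 CPM in controls, which overlap (log2 0.96 ± 0.78, adjusted p = 0.791). Ordered by mean, the total tissue groups were day 48 control, day 3 T.mu, day 14 T.mu, day 3 control, day 14 control and day 48 T.mu. Every neighbouring pair in that order overlapped.

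**Figure D3:**
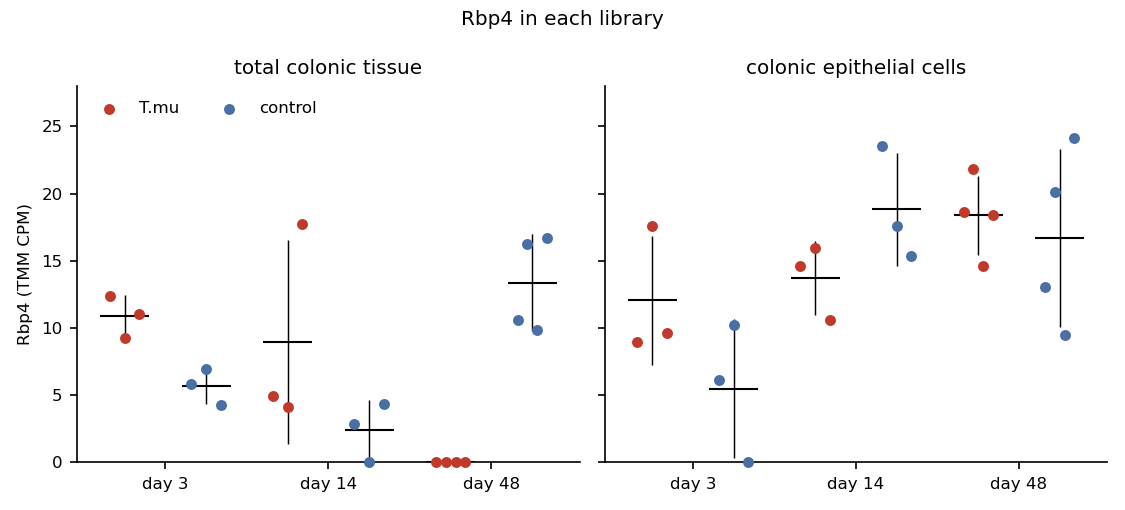
Rbp4 as TMM CPM in each library of total colonic tissue (left) and colonic epithelial cells (right), with T.mu in red left of control in blue on each day and a bar with whiskers for the mean ± SD (n = 3, 3 and 4). In total tissue the 4 day 48 T.mu libraries sit at 0, while in epithelial cells the 4 T.mu libraries of that day lie between 14.6 and 21.8 CPM, within the control range of 9.45 to 24.1 CPM.

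In epithelial cells Rbp4 did not show that difference. At day 48 Rbp4 measured 18.6, 21.8, 14.6 and 18.4 CPM in T.mu epithelium, against 13.1, 20.1, 9.45 and 24.1 CPM in controls (log2 0.16 ± 0.41, adjusted p = 0.998), with a 95% interval of -0.64 to 0.95. At day 14 Rbp4 measured 14.6, 16.0 and 10.6 CPM in T.mu epithelium, against 23.5, 17.6 and 15.4 CPM in controls. At day 3 Rbp4 measured 8.96, 17.6 and 9.61 CPM in T.mu epithelium, against 6.16, 10.3 and 0 CPM in controls. All 3 days overlapped, as did every neighbouring pair when the 6 epithelial groups were ordered by mean. The T.mu effect at day 48 in total tissue differed from that in epithelium (adjusted p = 0.00325), for Rbp4 as for 4 of 11834 tested genes (0.0338%). The contrast was added after the values were seen, and DESeq2 gave Rbp4 no adjusted p for it.

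Of the other 9 genes Scd1 alone passed the epithelial count filter, at 880 counts over the 20 libraries. At day 48 Scd1 measured 27.0, 23.6, 34.4 and 24.2 CPM in T.mu epithelium, against 37.9, 43.7, 43.7 and 48.2 CPM in controls. These do not overlap, where 2.1% of 10119 tested genes were lower without overlap, but the adjusted p was 0.998 (log2 -0.65 ± 0.30). With edgeR, DESeq2 and limma voom alike, 0 of 2 genes were called at days 3, 14 and 48, against backgrounds of 0.356%, 0.504% and 0.287%, and by edgeR 0, 0 and 1 had an unadjusted p under 0.05. As a mean over the 3 days, the same tools called 0 of 2, edgeR gave neither an unadjusted p under 0.05, and 3.39% of tested genes were called. The remaining 8 genes were near absent: Cfd had 7 counts in the 20 epithelial libraries together, Plin1 11, Adipoq 14, Retn 16, Fabp4 18, Plin4 31, Car3 47 and Cidec 77.

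Set directly against total tissue in the control mice, epithelium had less of 8 of 9 genes and more of Rbp4, where 52.8% of 11834 tested genes were called. That fit took all libraries as independent, although epithelial and tissue libraries of the same day, inoculum and litter may come from the same mouse. The log2 difference of epithelium minus total tissue was -7.28 ± 1.11 for Cfd, -6.10 ± 0.82 for Car3, -5.28 ± 0.67 for Fabp4 and -4.73 ± 0.34 for Cidec. It was -1.64 ± 0.28 for Scd1 and -2.06 ± 0.57 for Plin4. Retn (-4.67 ± 1.60, adjusted p = 0.0134) and Adipoq (-2.75 ± 1.13, adjusted p = 0.0402) were called with less margin, and both calls were lost with limma voom, with halved counts or without the libraries under 400000 counts. Control epithelium held 0 counts of Cfd and Car3 at day 3, of Fabp4 at day 14 and of Retn on both days. The fitted sizes for Cfd, Car3, Fabp4 and Retn therefore depend on the prior count. For Rbp4 the difference was 1.13 ± 0.37, or 2.18-fold more in epithelium with an adjusted p of 0.00732, a call lost without the count filter or without epithelial control replicate 2 of day 3. By day, Rbp4 averaged 5.47 ± 5.16, 18.8 ± 4.20 and 16.7 ± 6.64 CPM in control epithelium at days 3, 14 and 48, against 5.67 ± 1.34, 2.41 ± 2.21 and 13.4 ± 3.61 CPM in control tissue (SD, n = 3, 3 and 4), so the largest gap was at day 14. The day 14 tissue controls held 351445, 220717 and 1705280 counts in total, with 9 of Rbp4 together. Their second index differed from that of the day 14 epithelial controls. Tissue, index and depth cannot be told apart on that day. The Adipoq call was also lost with RLE scaling and when 1 of 8 libraries was left out: epithelial control replicate 1 or 3 of day 3, 1 or 2 of day 14, 1 or 3 of day 48, and tissue control replicate 1 of day 3 or 3 of day 14. The Retn call was lost without tissue control replicate 1 of day 3.

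**Figure D4:**
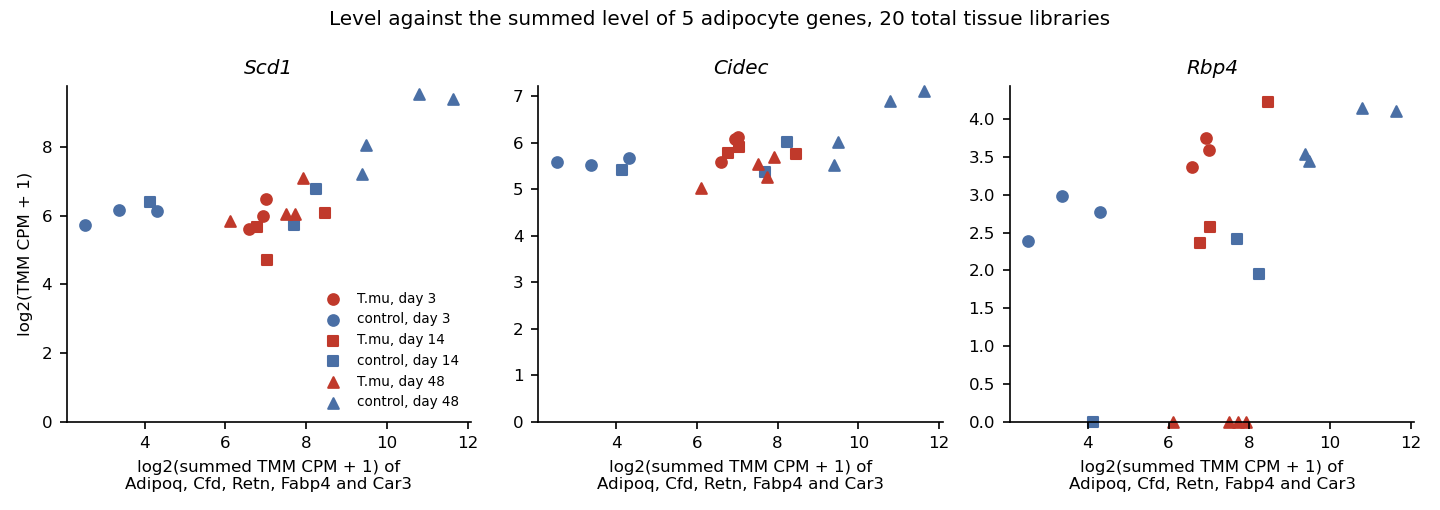
Scd1, Cidec and Rbp4 against the summed level of Adipoq, Cfd, Retn, Fabp4 and Car3 in the 20 total tissue libraries, all as log2(TMM CPM + 1), with T.mu in red, control in blue and the day by symbol. The 4 day 48 controls lie farthest right, at summed levels of 671 to 3187 CPM, and hold the 4 highest values of Scd1, while Rbp4 runs from 0 to 17.7 CPM and is at 0 in all 4 day 48 T.mu libraries.

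Scd1, Cidec, Plin4 and Rbp4 followed the 5 core adipocyte genes less closely. Over the 20 libraries Pearson r with those 5 genes was 0.63 to 0.80 for Scd1 and 0.58 to 0.66 for Cidec. In the 16 libraries other than the day 48 controls it was -0.01 to 0.21 for Scd1 and 0.10 to 0.32 for Cidec. For Plin4 it was 0.19 to 0.31 over 20 libraries and for Rbp4 0.24 to 0.44. The 16 libraries gave -0.33 to -0.19 for Plin4 and -0.32 to 0.16 for Rbp4. With Cidec, Rbp4 had a Pearson r of 0.62 over the 20 libraries and 0.62 over the 16.

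Among all other tested genes, those most like the summed level of the 9 adipocyte genes over the 20 tissue libraries were Thrsp (Pearson r = 0.88), Cyp2e1 (0.86), Hp (0.84), Cd36 (0.76), Slc36a2 (0.76), Fasn (0.73), Apoc3 (0.70) and Cdo1 (0.70). Their Spearman rho ran from 0.47 for Apoc3 to 0.90 for Thrsp. Thrsp, a regulator of lipid synthesis, averaged 8.76 ± 11.9 CPM in T.mu tissue at day 48 and 52.3 ± 27.7 CPM in controls (SD, n = 4 each). Cyp2e1, a cytochrome P450 of liver and fat, averaged 9.4 ± 7.4 CPM in T.mu tissue and 55.9 ± 54.1 CPM in controls. Cd36, a fatty acid transporter, averaged 22.8 ± 3.32 CPM in T.mu tissue and 74.5 ± 40.4 CPM in controls. These genes were chosen for their likeness over the same libraries, so their day 48 values are a description. The genes most like Rbp4 by Pearson r were Pelo (0.90), Irf2bp1 (0.89), Mtss1l (0.88), Uqcr11 (0.86) and Hemk1 (0.85). Their Spearman rho ran from 0.59 for Irf2bp1 to 0.86 for Pelo. Pelo, Irf2bp1 and Mtss1l also had 0 counts in all 4 T.mu libraries of day 48, against 64, 98 and 76 counts in controls, and Hemk1 had 3 counts against 149. Those T.mu libraries held 2601206 counts together and the controls 15627858, so depth and level cannot be told apart in these counts. Uqcr11, a subunit of respiratory complex III, was measured well in all groups and averaged 82.9 ± 16.8 CPM in T.mu tissue at day 48 and 170 ± 13.5 CPM in controls. Since these genes too were chosen on these libraries, their day 48 levels are a description.

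Other genes of fat cells were read on 3 further lists. Of 18 further genes known mainly from fat cells, 7 could be tested in total tissue and 1 was lower at day 48 (against 0.795% of all tested genes), with a median log2 fold change of -1.74. That gene was Lipe, the hormone-sensitive lipase, which averaged 7.04 ± 5.15 CPM in T.mu tissue and 29.2 ± 9.72 CPM in controls (SD, n = 4 each; log2 -1.74 ± 0.42, adjusted p = 0.0151). The 18 genes summed to 42.1 to 53.8 CPM in T.mu tissue at day 48 and to 87.2 to 242 CPM in controls. In epithelial cells of day 48 they summed to 38.2 to 62.1 CPM in T.mu and 42.8 to 73.8 CPM in control libraries. The sum is thus no measure of fat cells alone. Of the 18, 9 were at 0 in all 4 T.mu tissue libraries of day 48, namely Lep, Trarg1, Adrb3, Slc7a10, Cidea, Ucp1, Pnpla3, Serpina12 and Fam57b, against 1 in the tissue controls, Ucp1. The 4 T.mu libraries held 2601206 counts together and the 4 controls 15627858, and the day 14 controls, with 2277442 counts, had 5 of the 18 at 0, so depth and level cannot be told apart in these counts of zeros. Lep, which encodes leptin, had 43 counts in the 4 controls. Ucp1, the uncoupling protein that defines brown fat, was at 0 in every tissue library. At days 3 and 14 edgeR called none of the 7, and 1 had an unadjusted p under 0.05 on each day, against 5.18% and 9.23% of all tested genes. At day 48, 4 of the 7 had such a p, against 13.6% of all tested genes. Slc2a4, the insulin-regulated glucose transporter, averaged 13.3 ± 14.8 CPM in T.mu tissue at day 48 and 19.1 ± 3.55 CPM in controls, with an adjusted p of 0.692. Acvr1c, a receptor of the TGF-beta family, averaged 10.6 ± 5.83 CPM in T.mu tissue and 13.8 ± 3.16 CPM in controls, with an adjusted p of 0.821.

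Of 35 tested genes of lipid uptake, synthesis and storage that other cells also express, 4 were lower (against 0.795% of all tested genes) and 0 higher at day 48, with a median of -0.44. They were Lpl, the lipase that releases fatty acids from lipoproteins (log2 -2.22 ± 0.47, adjusted p = 0.0177), Me1 and Fasn of fatty acid synthesis (-1.52 ± 0.42 and -1.38 ± 0.34) and the carboxylesterase gene Ces1d (-0.72 ± 0.20). Pparg, the regulator of fat cell formation that colonic epithelium also expresses, averaged 159 ± 32.1 CPM in T.mu tissue and 144 ± 11.1 CPM in controls, with an adjusted p of 0.785. None of the 35 was called by edgeR at day 3 or day 14, when 8 and 4 had an unadjusted p under 0.05, against 5.18% and 9.23% of all tested genes. At day 48, 13 of the 35 had such a p, against 13.6% of all tested genes. Of 16 tested genes that carry, convert or sense retinoids, 0 were called at days 3, 14 and 48 by edgeR, and 2, 1 and 3 had an unadjusted p under 0.05. Of all tested genes 5.18%, 9.23% and 13.6% had such a p on those days. Ttr, the plasma partner of RBP4, averaged 2.43 ± 3.10 CPM in T.mu tissue at day 48 and 7.65 ± 3.04 CPM in controls (SD, n = 4 each), from 4 and 132 counts, with an adjusted p of 0.331. Stra6 had 6 counts in T.mu tissue and 26 in controls and was not tested. These 2 genes were named after their values were seen. The adiponectin receptor genes Adipor1 and Adipor2 were not called on any day, and at day 48 Adipor1 averaged 118 ± 20.5 CPM in T.mu tissue and 127 ± 15.8 CPM in controls.

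Markers of other cells in the colon wall were summed for each library beside these results. At day 48, of the markers that could be tested, 0 of 8 mesothelial, 0 of 9 endothelial, 0 of 10 smooth muscle, 0 of 12 fibroblast and 0 of 9 macrophage genes were called by edgeR. At an unadjusted p under 0.05 there were 0, 0, 4, 2 and 1 of them, where 13.6% of all tested genes had such a p. Their summed levels overlapped between T.mu and control tissue, and those of lymphoid markers, at 3.24 to 13.0 CPM in T.mu tissue and 11.1 to 22.9 CPM in controls, did too. The mesothelial list is no measure of mesothelium alone. It summed to 965 to 1377 CPM in day 48 control epithelium, against 1239 to 1472 CPM in control tissue. Endothelial markers summed to 67.4 to 108 CPM in T.mu tissue and 78.8 to 116 CPM in controls. Macrophage markers summed to 50.5 to 266 CPM in T.mu tissue and 148 to 273 CPM in controls. Epithelial markers summed to 62471 to 66778 CPM in T.mu tissue and 47259 to 60888 CPM in controls, without overlap, and 1 of 12 was called higher. Enteroendocrine markers, listed after the Rbp4 values were seen, summed to 258 to 369 CPM in T.mu tissue and 242 to 507 CPM in controls, with 0 of 9 called by edgeR and 2 at an unadjusted p under 0.05. At day 3, when 6 of the 9 genes lay above the controls without overlap and none was called, fibroblast markers summed to 2520 to 3029 CPM in T.mu tissue and 1157 to 2261 CPM in controls. Macrophage markers then summed to 258 to 361 CPM in T.mu tissue and 103 to 193 CPM in controls. Endothelial markers summed to 69.1 to 78.7 CPM in T.mu tissue at day 3 and 43.5 to 62.1 CPM in controls, and lymphoid markers to 22.2 to 23.0 CPM in T.mu tissue and 9.22 to 17.3 CPM in controls. None of these 4 sums overlapped at day 3, nor did that of skeletal muscle given above. Of the 12 fibroblast, 9 macrophage, 9 endothelial, 2 lymphoid and 2 skeletal muscle genes that could be tested, edgeR called none at day 3, and 8, 4, 0, 1 and 0 had an unadjusted p under 0.05. Of all tested genes 5.18% had such a p at day 3. Of the 8 mesothelial genes edgeR called none at day 3, and 3 had such a p. Their median log2 fold change was 1.29, against 0.52 for the fibroblast and 0.84 for the macrophage genes. The part of any of these cell types, or of library depth, in the levels of the adipocyte genes was not tested.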

How the data were processed

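The values used were deposited read counts per mouse gene for 40 colon libraries. Per the submitters' processing notes, STAR and Subread were used. Sources used here name no genome build, annotation, strand setting or treatment of molecular identifiers. Ensembl IDs were matched to symbols, and 45143 of 45792 rows had one. One non-mouse row, 0.389% of counts (0.000511 to 4.28% per library), was left out of library totals and tests. Of counts from 1 to 20 in a library, 61.2 to 87.2% were even, and counts were therefore also tested halved. Intervals and floors cover counting error only. They take counts as deposited and as independent, so with mostly even small counts the intervals may be too narrow and the bounds too large.

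Counts were tested with edgeR 4.0.16 (R 4.3.3; robust quasi-likelihood, TMM, filterByExpr with minimum count 10 and minimum total 15), with 1 fit per tissue over 6 groups, 1 fit over both tissues, Benjamini-Hochberg adjustment over all genes and a threshold of 0.05. The alternatives were DESeq2 1.42.0, limma 3.58.1 voom, RLE scaling, no filter, halved or thinned counts, smaller sets of libraries, litter blocks and a fat-cell covariate. The main fit over both tissues, used also for the day 48 contrast of tissue with epithelium, had no term for a shared mouse. Its block, as an alternative, was day, inoculum and litter together. A litter number is given as a characteristic of each library in the labels, and it pairs T.mu and control libraries of a day. Deviations of same-litter libraries from their group means correlated at -0.10 to 0.17 in tissue and -0.08 to 0.18 in epithelium. All 10 genes are described whatever their result. Of the other lists, genes past the threshold (up to 6) and, for fat-cell genes, the 4 with the highest levels are named, with the 8 and 5 genes most like the fat-cell sum and Rbp4. The genes and lists were chosen with earlier results of these data known. That replicates are separate animals rests on the litter labels, and the p-values measure the spread between these libraries. The scripts were tested on simulated data.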

Additional observations from a re-analysis of the deposited data

Results flagged for a closer look

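One library stood far from the others of its group. Scd1 measured 134.75 CPM in 1 T.mu total tissue library of day 48, against 57.0 to 65.2 CPM in the other 3, and that library had 236155 counts. Of 26 groups of 4 libraries examined 1 was so marked, and chance marks about 1 in 20.

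The T.mu effect on Rbp4 in total tissue differed between days 3, 14 and 48 (edgeR, adjusted p = 0.0136), with 0 counts in all 4 T.mu libraries of day 48 and counts in all T.mu libraries of the earlier days. At day 48 the effect on Rbp4 in total tissue also differed from that in epithelium (edgeR, adjusted p = 0.00325). The 4 T.mu tissue libraries of day 48 are shallower than their controls and carry a second index of their own, and the inoculum, the index and the depth cannot be told apart.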

How the results depend on the processing

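At day 48 in total tissue 6 of 9 genes were called, and the number was 0 with the fat-cell covariate and 1 (Rbp4) in 3 settings: limma voom, a fit on the day 48 libraries alone, and the removal of libraries under 400000 counts. It was 5 with the replicate block of litter and 7 with litter within day. Leaving out 1 library of day 48 gave 4 to 8. Adipoq was gained without control replicate 1, 2 or 3, and Retn when T.mu replicate 2 or control replicate 1 was left out. At day 3 the number was 0 of 9, and 4 with the covariate, 3 with DESeq2, with only that day's libraries and with the block of litter within day, and 1 without a filter. The difference between days was called for 1 gene, and for 4 with DESeq2 and with litter within day, 5 without a filter, and 0 with the covariate and with thinned counts, among which Rbp4 was not kept. DESeq2 gave Rbp4 no adjusted p for that difference. Without 1 library the number called was 1 to 4, with Rbp4 always among them and more than 1 when the library left out was T.mu replicate 3 of day 14, control replicate 2 or 3 of day 14, or control replicate 1, 2 or 3 of day 48. The mean over days was called for 0 genes, for 1 with DESeq2, and for 0 to 1 without 1 library (Scd1, without control replicate 1 of day 48). No other count of calls in the T.mu comparisons moved by over 1.5 times under a block. The causes were not tested.

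Directions turned only for genes without a call, except Cidec at day 48 with the covariate (log2 0.26; Plin4 0.41). With the covariate the day 14 values were 0.18 for Car3, 0.20 for Cfd, 0.069 for Fabp4 and 0.14 for Retn, the day 3 value of Scd1 was -0.22, and the means over days were 0.75 for Car3, 0.32 for Cidec, 0.39 for Fabp4 and 0.21 for Plin4. With litter within day as the block they were 0.17 for Car3, 0.17 for Cfd, 0.047 for Fabp4 and 0.31 for Retn at day 14, -0.0060 for Scd1 at day 3 and 0.048 for the mean of Car3. DESeq2 gave 0.046 for Car3, 0.19 for Cfd and 0.12 for Retn at day 14. Voom gave 0.12 for Car3 at day 14, -0.076 for Scd1 at day 3, and means of 0.047 for Car3 and -0.17 for Retn. Thinned counts gave 0.50 for Car3 and 0.39 for Cfd at day 14, -0.051 for Scd1 at day 3, and means of 1.03 for Car3 and -0.31 for Retn. Without a filter Cfd was 0.016 at day 14 and Scd1 -0.048 at day 3. Scd1 was -0.019 at day 3 without libraries under 400000 counts, and the mean of Retn was -0.025 with halved counts. Leaving out 1 library gave ranges at day 14 of -0.68 to 0.00053 for Adipoq, -0.52 to 0.17 for Car3, -0.84 to 0.36 for Cfd, -0.41 to 0.089 for Fabp4 and -0.75 to 0.21 for Retn. It gave -0.23 to 0.22 for Scd1 at day 3, and means of -0.31 to 0.10 for Car3, -0.0049 to 0.69 for Cfd and -0.41 to 0.81 for Retn.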
